A study of Mus musculus with 18 samples.

Results

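The genes described here are 36 genes of the lysosome, chosen by symbol for their function and not by a threshold on these counts: 8 cathepsins and other proteases, 11 glycosidases, 3 sulfatases, 6 genes of lipid handling and 8 genes of membrane proteins. Each was matched by its symbol to 1 row of a table of 38924 genes, and all 36 passed the filter on low counts that kept 16577 genes for testing. The table holds RNA-seq of mouse fibroblasts in 6 groups of 3 libraries. The donors were male Rosa mT/mG mice of 10 weeks on a C57BL/6 background, whose cells carry the red fluorescent protein TdTomato, and their heart, kidney and tail fibroblasts were grown for 10 days in culture. Between 400000 and 500000 cells on gelatin foam were then placed under the kidney capsule of syngeneic C57BL/6J mice aged 10 to 11 weeks, and live CD45-;TdTomato+ cells were sorted after 3 days, named HFs for heart, KFs for kidney and TFs for tail fibroblasts. The cultured controls of the same organs (HFc, KFc and TFc) were the remaining cells, plated again, for which no such sort is stated. Surgery, the host kidney, the sort and the absence of plastic therefore all separate the transplanted from the cultured groups and cannot be told apart. The paper describes the 3 libraries of a group as biological replicates. Neither it nor the labels say whether they came from separate mice or cultures, so p-values measure the spread between these libraries only.

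The lysosome is the acidic compartment in which proteins, glycans and lipids delivered by endocytosis and autophagy are broken down. Its soluble hydrolases are made in the endoplasmic reticulum and carried from the Golgi apparatus by mannose 6-phosphate receptors or sortilin, while a proton pump, the V-ATPase, keeps the lumen acidic. The limiting membrane is lined by heavily glycosylated proteins, among them LAMP1 and LAMP2, and loss of most of the hydrolases causes a storage disease. In fibroblasts, cathepsins also take part in the turnover of collagen and other matrix that the cells take up.

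Library totals ranged from 17927838 to 32245168 counts, and 3 counts, the level treated as the limit of detection, corresponded to between 0.093 and 0.167 CPM, the counts of a gene scaled to a library of 1e+06 counts, which covers counting error only. Levels below are CPM after TMM scaling and are listed for replicates 1, 2 and 3 in that order. The cultured libraries varied little, with a median coefficient of variation over the 36 genes between 3.31% and 4.43%, against 8.26% in TFs, 10.1% in HFs and 24.7% in KFs. KFs replicate 3 stood apart: it had 1492 CPM of Xist, which was at most 0.404 CPM in the other 17 libraries although the donors are described as male. Y-linked genes summed to 0.722 CPM in it, against 175 to 230 CPM in the other 17 libraries. The name of this library, Kidney-Fibros, also departs from the others, which hold an organ letter and a number. Where the cells of this library came from was not tested. Fibroblast markers, 12 in number, summed in it to 30671 CPM, against 106590 and 81724 CPM in the other KFs libraries. Its sum over 13 markers of tubule segments other than the proximal one, 193 CPM, was the highest of all libraries. Most of this sum was held by Krt8, Cdh16 and Krt18, at 70.2, 58.8 and 27.8 CPM. The other markers of the list did not all go this way. Slc12a3, at 8.90 CPM, was the highest of the KFs libraries, but Umod, at 2.57 CPM, was the lowest, and Aqp2, Slc4a1 and Slc26a4 were at 0. Values without this library are given beside results of kidney cells. Fibroblast markers summed to at least 22919 CPM in every library. The sum over 14 proximal tubule markers was 22.5 to 25.05 CPM in HFc and 105 to 1541 CPM in HFs, highest in HFs replicate 2, 103 to 111 CPM in KFc and 70.4 to 146 CPM in KFs, and 19.6 to 22.0 CPM in TFc and 157 to 402 CPM in TFs. In kidney cells the sum hides opposite movements. Lrp2 held most of the KFc sum and went from 99.2, 98.4 and 92.0 CPM in KFc to 45.2, 22.7 and 55.2 CPM in KFs. Aqp1 was also lower in every KFs than in every KFc library. The 6 markers at 0 in all KFc libraries were above 0 in every KFs library. Among them, Slc34a1 stood at 14.8, 7.66 and 3.33 CPM in KFs and Slc27a2 at 14.7, 4.71 and 3.49 CPM. The sum over 9 endothelial markers was higher in every transplanted than in every cultured library of the same organ, at 75.0 to 78.3 CPM in HFc and 112 to 117 CPM in HFs, 75.9 to 79.0 CPM in KFc and 114 to 129 CPM in KFs, and 51.5 to 59.1 CPM in TFc and 81.5 to 98.1 CPM in TFs. These markers did not move alike. Pecam1 overlapped between cultured and transplanted libraries in each organ, and Tek was lower in every TFs than in every TFc library. Flt1 went from 28.6, 35.1 and 29.2 CPM in KFc to 63.8, 62.9 and 76.3 CPM in KFs. The sum over 5 erythroid markers was 0 in the cultured libraries and at most 42.5 CPM in the transplanted ones.

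Together the 36 genes held 0.444% ± 0.0055 (SD, n = 3) of all counts in HFc and 0.501% ± 0.041 in HFs, 0.476% ± 0.0066 in KFc and 0.388% ± 0.034 in KFs, and 0.516% ± 0.012 in TFc and 0.537% ± 0.035 in TFs. The mean share was higher after transplantation in heart cells and lower in kidney cells, while the means of tail cells differed by less than the SD of TFs, and no test was made of these shares. Per kilobase of exon, the scale on which genes can be compared, Ctsd, the aspartic protease cathepsin D, led in HFc with 327 CPM per kb, in KFc with 298, in TFc with 264 and in HFs with 313 CPM per kb. In TFs the first place was held by Psap, the precursor of the saposins that present sphingolipids to their hydrolases, with 215 CPM per kb. Abcb9, a peptide transporter of the lysosomal membrane, was the lowest of the 36 in each group, between 0.446 and 1.13 CPM per kb.

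Transplantation was followed by changes that went mainly up in heart fibroblasts and mainly down in kidney fibroblasts. In tail fibroblasts they went in both directions, in shares near those of all genes tested. With an adjusted p under 0.05 in edgeR's quasi-likelihood test, 20 of the 36 genes were higher in HFs than in HFc and 3 were lower, beside 28.0% and 28.4% of all genes tested. In kidney cells 5 were higher in KFs than in KFc and 18 were lower, beside 26.1% and 22.7%. In tail cells 8 were higher in TFs than in TFc and 6 were lower, beside 18.6% and 20.2%. Over the 36 genes the median change on the log2 scale was 0.44 in heart, -0.44 in kidney and 0.02 in tail cells, against 0.05, 0.09 and 0 over all genes tested. Changes of more than 1 on the log2 scale were few: 3 higher and 1 lower in heart cells (18.3% and 9.33% of all genes), 0 higher and 4 lower in kidney cells (14.7% and 7.99%), and 0 higher and 1 lower in tail cells (11.0% and 5.53%).

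These counts depended unevenly on the libraries. Without KFs replicate 3, 19 genes were lower and 5 were higher in KFs, of which 16 and 3 were among those of all libraries. Ctss, Neu1 and Psap were then called lower and Glb1 and Scarb2 higher, while Ctsl, Manba, Gaa and Arsa lost their calls. The 5 that were higher fell to 1, 3 or 2 when KFc replicate 1, 2 or 3 was left out and to 3 without KFs replicate 1, and the 8 that were higher in TFs fell to 5 without TFc replicate 1 or TFc replicate 2. A fit of only the 2 groups compared left 1 gene higher and 11 lower in KFs, and called 15 higher and 11 lower in TFs. Without HFs replicate 2, where proximal tubule markers were highest, 18 of the 20 genes were still higher, and HFs replicates 1 and 3 held 184 and 105 CPM of these markers. In the kidney comparison the sum over 15 macrophage markers went from 509.6 to 555 CPM in KFc to 40.9 to 178 CPM in KFs. The part of tubule, endothelial and macrophage RNA in the changes of the 36 genes was not tested.

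**Figure D1:**
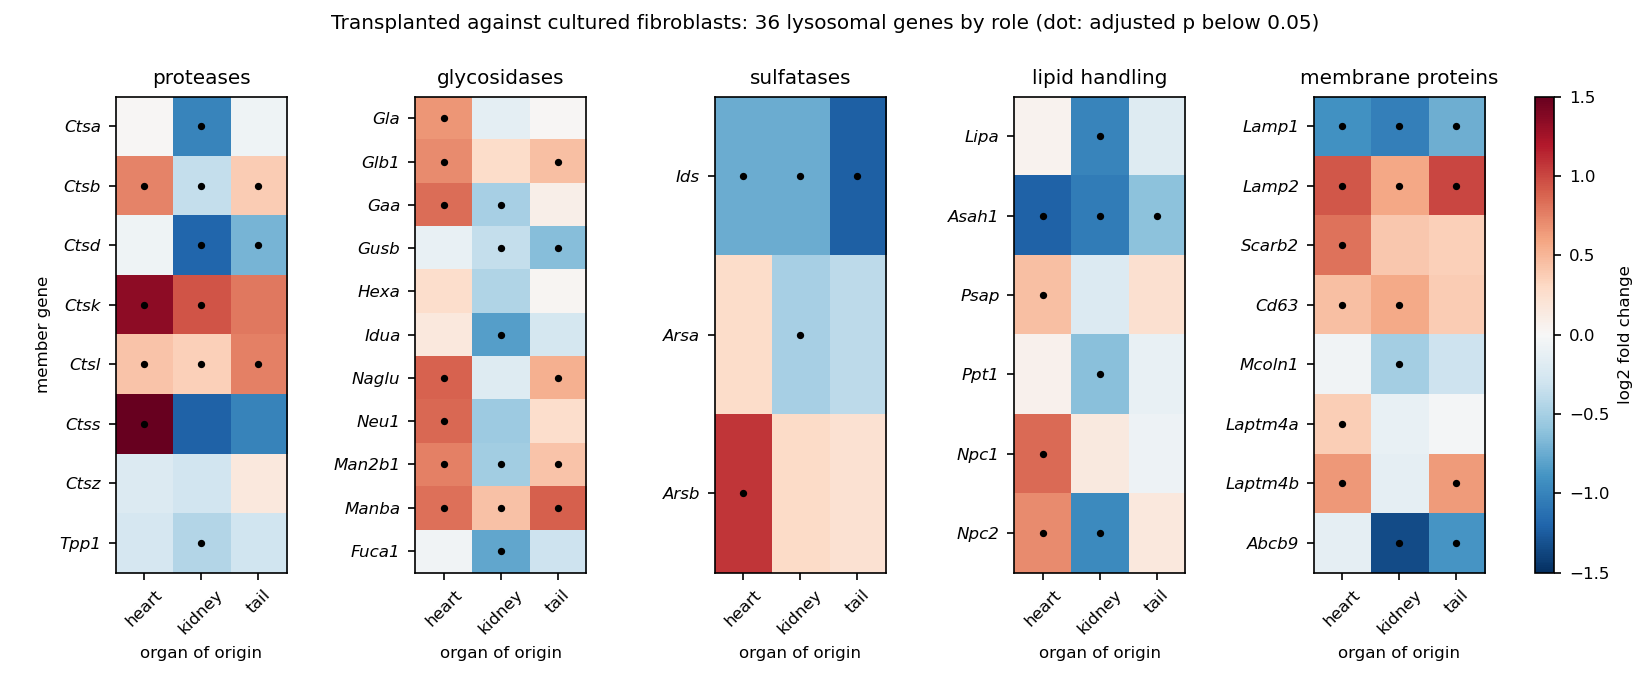
Log2 fold change of the 36 lysosomal genes, transplanted against cultured, in heart, kidney and tail fibroblasts (columns), with genes in rows grouped by role. Red is higher and blue is lower after transplantation, and a dot marks an adjusted p below 0.05. The heart column is mostly red (20 higher, 3 lower) and the kidney column mostly blue (5 higher, 18 lower).

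Of the 36 genes, 3 were lower in all 3 transplanted groups (10.9% of all genes were) and 3 were higher in all 3 (10.0%), 4 changed in opposite directions in different organs (4.86%), 24 were called in 1 or 2 comparisons in 1 direction, and 2 were called in none. The 3 transplant comparisons share no library. The 6 genes that moved one way in every organ included both of the abundant membrane glycoproteins of the lysosome, which went in opposite directions.

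Lamp1 (ENSMUSG00000031447, chr8:13159161-13175338, plus strand in GENCODE release M21 on GRCm38) encodes the most abundant glycoprotein lining the lysosomal membrane. It stood at 554, 569 and 560.1 CPM in HFc and 282, 324 and 288 CPM in HFs. In kidney cells the levels were 503, 495 and 492 CPM in KFc and 245, 252 and 238 CPM in KFs, and in tail cells 459.5, 465 and 461 CPM in TFc and 282, 286 and 266 CPM in TFs. Every transplanted library was below every cultured library, and after transplantation the 9 libraries of the 3 organs lay between 238 and 324 CPM. The log2 fold change was -0.91 ± 0.07 (SE, adjusted p = 5.24e-08) in heart, -1.02 ± 0.07 (adjusted p = 2.69e-08) in kidney and -0.73 ± 0.07 (adjusted p = 1.16e-06) in tail cells. With all libraries no difference between these responses passed the threshold, with adjusted p of 0.202 for heart against tail, 0.0689 for kidney against tail and 0.456 for heart against kidney. Without KFs replicate 3 the fall was deeper in kidney than in tail cells, by -0.29 on the log2 scale (adjusted p = 0.0282).

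Lamp2 (ENSMUSG00000016534, chrX:38401357-38456454, minus strand) encodes the second major glycoprotein of this membrane, which is needed for chaperone-mediated autophagy and for the fusion of autophagosomes with lysosomes. It went the other way, from 189, 196 and 190.3 CPM in HFc to 328, 366 and 405 CPM in HFs. In kidney cells it was at 163, 177 and 179.6 CPM in KFc and 309, 222 and 245 CPM in KFs, and in tail cells at 173, 196 and 191 CPM in TFc and 352, 388 and 381 CPM in TFs. All transplanted libraries were above all cultured ones. The log2 fold change was 0.93 ± 0.11 (adjusted p = 4.18e-06) in heart, 0.58 ± 0.11 (adjusted p = 0.000466) in kidney and 1.00 ± 0.11 (adjusted p = 5.81e-06) in tail cells, and Lamp2 was the only one of the 3 genes higher in every organ whose kidney call held without KFs replicate 3 (log2 fold change 0.57, adjusted p = 0.000656). Since 2 genes of one membrane moved in opposite directions, their promoters are shown, from 250 bases before to 50 bases after the transcription start as RefSeq gives them on GRCm38.p6, each 5′ to 3′ on the strand of its gene. Capitals mark CACGTG, the core of the site that TFEB and its relatives, the regulators of many lysosomal genes, are known to bind.
Lamp1 (chr8:13158911-13159210, plus strand): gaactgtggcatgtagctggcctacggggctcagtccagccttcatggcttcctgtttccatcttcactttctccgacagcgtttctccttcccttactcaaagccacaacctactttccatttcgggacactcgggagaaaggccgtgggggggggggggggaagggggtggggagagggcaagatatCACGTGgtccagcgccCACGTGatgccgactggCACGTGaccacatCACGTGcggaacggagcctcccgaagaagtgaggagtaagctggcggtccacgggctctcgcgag
Lamp2 (chrX:38456411-38456710, minus strand): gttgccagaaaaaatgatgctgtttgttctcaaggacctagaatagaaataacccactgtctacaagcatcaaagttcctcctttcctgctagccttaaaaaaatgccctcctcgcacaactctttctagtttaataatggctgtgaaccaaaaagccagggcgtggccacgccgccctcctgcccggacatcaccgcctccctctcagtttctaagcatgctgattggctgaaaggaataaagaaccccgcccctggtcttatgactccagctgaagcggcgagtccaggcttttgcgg
The Lamp1 promoter held 4 matches, which began at positions -61, -45, -28 and -15 from the start base, and the Lamp2 promoter held 0. A match is a description of the letters in this window and not of binding.

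Asah1, which encodes the acid ceramidase that splits ceramide in the lysosome, had the largest fall of the 36 genes in heart cells. Its levels were 207, 208 and 206 CPM in HFc and 83.7, 93.3 and 91.5 CPM in HFs, 171, 173 and 174 CPM in KFc and 86.4, 71.7 and 92.4 CPM in KFs, and 113, 119 and 122 CPM in TFc and 72.0, 89.2 and 70.7 CPM in TFs. The cultured levels differed by organ, and the transplanted libraries of all 3 organs lay between 70.7 and 93.3 CPM, below every cultured library. The log2 fold change was -1.21 ± 0.10 (adjusted p = 1.21e-07) in heart, -1.05 ± 0.10 (adjusted p = 7.04e-07) in kidney and -0.61 ± 0.10 (adjusted p = 0.000179) in tail cells. Heart and tail cells differed in this response by -0.60 ± 0.14 on the log2 scale (adjusted p = 0.00621), and kidney and tail cells by -0.44 ± 0.14 (adjusted p = 0.054), which passed the test without KFs replicate 3 (-0.54, adjusted p = 0.00813).

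Ids, the iduronate 2-sulfatase that removes sulfate from heparan and dermatan sulfate, showed the largest fall in tail cells. It went from 122, 116 and 122 CPM in TFc to 45.9, 52.7 and 55.0 CPM in TFs, a log2 fold change of -1.23 ± 0.09 (adjusted p = 7.94e-08). In heart cells it was at 67.3, 71.1 and 70.1 CPM in HFc and 39.9, 39.8 and 44.7 CPM in HFs, and in kidney cells at 46.0, 41.5 and 42.5 CPM in KFc and 28.5, 23.6 and 25.8 CPM in KFs. Cultured and transplanted libraries did not overlap in any organ. The falls were -0.74 in heart (adjusted p = 3.46e-06) and -0.74 in kidney cells (adjusted p = 5.66e-06), each smaller in size than that of tail cells by 0.49 on the log2 scale (adjusted p = 0.00949 for heart against tail and 0.0172 for kidney against tail, the latter lost under 4 of the alternatives tried, among them leaving out TFc replicate 3).

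Ctsl and Manba were higher in all 3 transplanted groups with every library included, and the kidney call of each was lost without KFs replicate 3. Ctsl, the cysteine protease cathepsin L, was at 254, 263 and 262 CPM in TFc and 449.5, 406 and 461 CPM in TFs, a rise of 0.76 ± 0.14 on the log2 scale (adjusted p = 0.000481). It was at 340.0, 343 and 362 CPM in HFc and 379, 528 and 504 CPM in HFs (log2 fold change 0.43, adjusted p = 0.0133). In kidney cells the levels were 303, 323 and 307 CPM in KFc and 364, 333 and 502 CPM in KFs, where replicate 3 was the highest, and the log2 fold change of 0.36 (adjusted p = 0.038) became 0.12 (adjusted p = 0.363) without it. Of the exon bases of Ctsl, 6.09% are shared with a pseudogene on the same strand, Gm49230, so its counts are uncertain to that extent.

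Manba, the beta-mannosidase that takes the last mannose from N-glycan fragments, was at 17.8, 19.6 and 19.3 CPM in HFc and 31.7, 35.9 and 32.9 CPM in HFs, and at 14.7, 14.2 and 11.7 CPM in TFc and 22.3, 26.0 and 27.1 CPM in TFs. These groups did not overlap, with log2 fold changes of 0.83 ± 0.16 (adjusted p = 0.000439) and 0.89 ± 0.16 (adjusted p = 0.000497). In kidney cells it was at 17.0, 18.7 and 16.0 CPM in KFc and 25.8, 16.2 and 28.1 CPM in KFs. Replicate 2 of KFs lay within the cultured range, and the log2 fold change of 0.44 ± 0.16 (adjusted p = 0.034) fell to 0.24 (adjusted p = 0.226) without replicate 3; the call was also lost without KFs replicate 1 or KFc replicate 1 or 3.

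**Figure D2:**
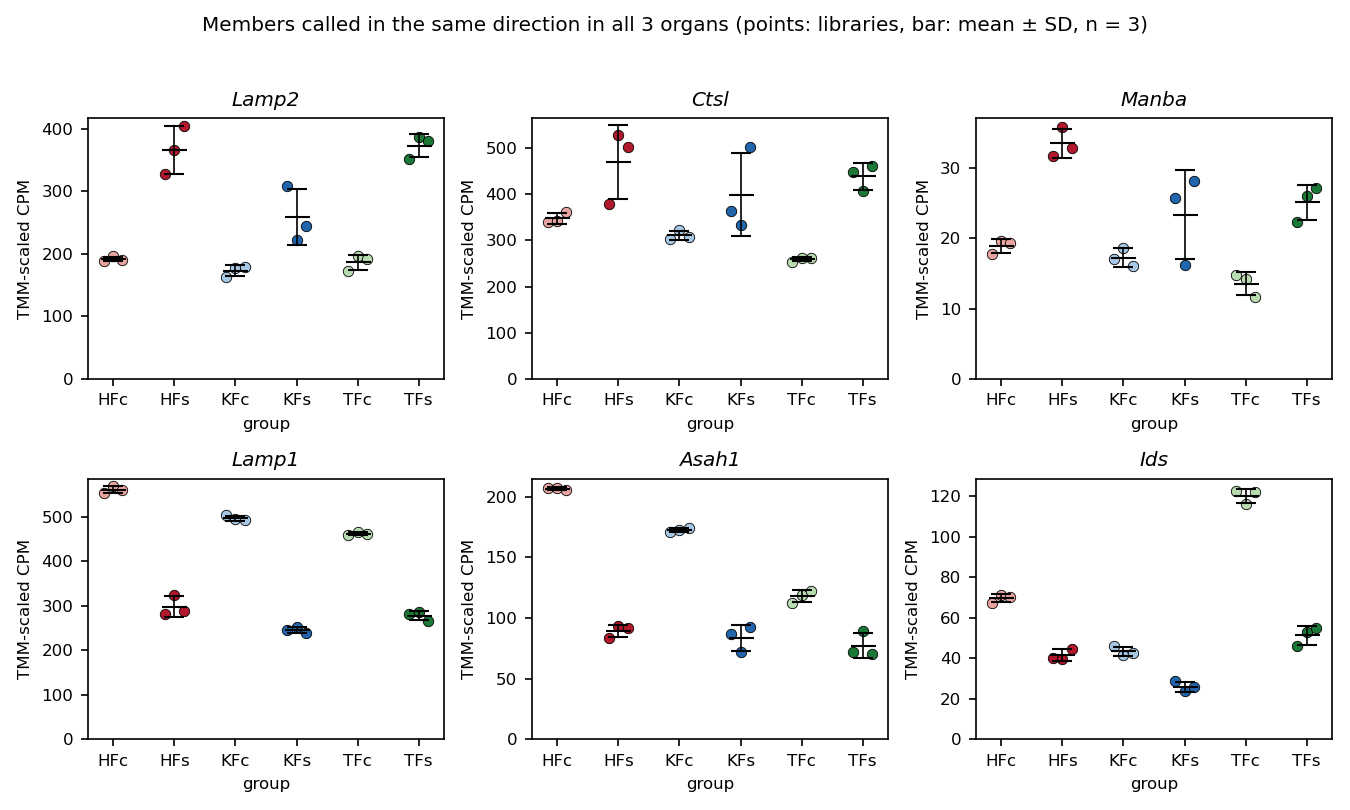
TMM-scaled CPM of Lamp2, Ctsl, Manba, Lamp1, Asah1 and Ids in each library (points) of the 6 groups, with the mean and SD of 3 libraries. The upper row holds the genes higher in all 3 transplanted groups and the lower row those that were lower. Transplanted and cultured points do not overlap in any panel and organ except Manba in kidney cells.

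Among the proteases, 4 of 8 were higher in HFs, and in KFs 2 were higher and 4 were lower. For this class and those below, the shares of all genes were 28.0% higher and 28.4% lower in HFs and 26.1% and 22.7% in KFs. In TFs they were 18.6% and 20.2%. Ctsk, cathepsin K, a collagen-cleaving protease best known from osteoclasts, was at 27.4, 26.4 and 23.1 CPM in HFc and 70.8, 65.3 and 59.8 CPM in HFs, a rise of 1.35 ± 0.33 on the log2 scale (adjusted p = 0.00283). In kidney cells it was at 32.2, 29.7 and 27.2 CPM in KFc and 89.6, 61.7 and 19.4 CPM in KFs. Replicate 3 of KFs was below every KFc library while the other KFs libraries were above them, and the log2 fold change of 0.94 ± 0.33 (adjusted p = 0.0271) was 1.31 without that library (adjusted p = 9.19e-07) and lost its call without any 1 of the other 5 kidney libraries. In tail cells the levels were 38.5, 44.5 and 41.0 CPM in TFc and 65.1, 75.8 and 73.5 CPM in TFs, which did not overlap but did not pass the test, with a log2 fold change of 0.79 ± 0.33 and an adjusted p of 0.0666.

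Cathepsin D moved by organ. Ctsd was at 753, 764 and 792 CPM in HFc and 681, 874 and 655 CPM in HFs, where the ranges overlapped (log2 fold change -0.06 ± 0.21, adjusted p = 0.816). It fell from 716, 707 and 682 CPM in KFc to 260.3, 204 and 461 CPM in KFs (log2 fold change -1.19 ± 0.21, adjusted p = 0.000291), and the fall was -1.64 without replicate 3 of KFs, the highest of that group. In tail cells it fell from 608, 625 and 626 CPM in TFc to 328, 397 and 418 CPM in TFs (a log2 change of -0.70 ± 0.21, adjusted p = 0.0158), and this call was lost without TFs replicate 1. In the annotation 34.4% of the exon bases of Ctsd are shared with a gene model on the same strand, Gm49369, so counts of the pair may be divided between them.

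Ctsb, cathepsin B, was 1 of the 4 genes with opposite directions. It rose from 257, 252 and 268 CPM in HFc to 383, 471 and 443 CPM in HFs (log2 fold change 0.74 ± 0.11, adjusted p = 4.20e-05) and from 417, 433 and 438 CPM in TFc to 529, 536 and 606 CPM in TFs (0.38 ± 0.11, adjusted p = 0.0136). In kidney cells it fell from 461, 439 and 422 CPM in KFc to 413, 325 and 299 CPM in KFs (-0.35 ± 0.11, adjusted p = 0.0148). Transplanted and cultured libraries did not overlap in any of the organs. Ctsa, the protective protein that shields beta-galactosidase and neuraminidase 1, fell in KFs by 1.99-fold (log2 fold change -0.99, adjusted p = 1.35e-05) and had log2 fold changes of 0.01 in heart and -0.07 in tail cells that did not pass the test. Tpp1, tripeptidyl peptidase 1, fell in KFs (log2 fold change -0.44, adjusted p = 0.0351), where replicate 3, at 81.2 CPM, lay within the KFc range of 76.6 to 82.8 CPM and the other libraries below it, and the value was -0.77 without replicate 3 (adjusted p = 3.69e-05). Ctsz, cathepsin Z, was called in no organ, with log2 fold changes of -0.20, -0.29 and 0.15 in heart, kidney and tail cells.

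Ctss, cathepsin S, is a protease of antigen-presenting cells. It was at 7.65, 6.97 and 9.14 CPM in HFc and 15.2, 20.2 and 31.3 CPM in HFs, a log2 fold change of 1.50 ± 0.57 (adjusted p = 0.0348) that was lost when HFc replicate 1, 2 or 3 or HFs replicate 3 was left out. In kidney cells the levels were 35.6, 35.9 and 33.4 CPM in KFc and 22.8, 20.8 and 1.36 CPM in KFs (log2 fold change -1.22 ± 0.55, adjusted p = 0.0812), and in tail cells 10.3, 13.5 and 12.8 CPM in TFc and 6.05, 5.54 and 6.66 CPM in TFs (-1.003 ± 0.58, adjusted p = 0.181). Neither fall passed the test with all libraries, and without KFs replicate 3, where Ctss was lowest, the kidney value was -0.72 (adjusted p = 0.0104). Every KFs library was below every KFc library and every TFs library below every TFc library, while the order was the opposite in heart cells. The summed level of 15 macrophage markers was 124 to 142 CPM in HFc and 111 to 188 CPM in HFs, 509.6 to 555 CPM in KFc and 40.9 to 178 CPM in KFs, and 197 to 228 CPM in TFc and 47.7 to 56.1 CPM in TFs, and 0 of the 15 were at 0 throughout a group. KFs replicate 3 was lowest among KFs in both that sum and Ctss. By the same fit of HFs against HFc, Cd14 alone of these markers was called higher (log2 fold change 1.36, adjusted p = 0.031). Cx3cr1 alone was called lower there (-0.98, adjusted p = 0.00875), and the others were not called. Adgre1, Csf1r, Lyz2, C1qa, C1qb and C1qc were called lower in both KFs and TFs, and Tyrobp, Fcer1g and Cx3cr1 in KFs only. The others were not called in these organs. Of them, Fcgr1, Aif1 and Mrc1 had log2 fold changes of 1.41, 1.03 and 0.35 in TFs. Cd14 had 0.38 in KFs, where replicate 3, at 25.9 CPM, was the highest of all libraries. In such bulk samples fewer cells of a type and less RNA per cell cannot be told apart, the sort for CD45- cells applied to the transplanted groups, and the part of macrophage RNA in the values of Ctss was not tested.

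The glycosidases, which take sugars off glycans and glycolipids from the outer end, were the class with the most genes higher in heart cells: 7 of 11 were higher in HFs and 0 lower, 1 higher and 5 lower in KFs, and 4 higher and 1 lower in TFs. The risers in HFs besides Manba were Naglu, an N-acetylglucosaminidase of heparan sulfate breakdown (1.84-fold, adjusted p = 0.000149), Neu1, the lysosomal sialidase (1.82-fold, adjusted p = 0.0231), Gaa, the acid glucosidase that degrades glycogen (1.79-fold, adjusted p = 0.000857), Man2b1, the alpha-mannosidase (1.69-fold, adjusted p = 0.000292), Glb1, the beta-galactosidase whose activity is used as a stain for senescent cells (1.64-fold, adjusted p = 0.000388), and Gla, the alpha-galactosidase (1.58-fold, adjusted p = 0.00125). Neu1 was highest in replicate 2 of HFs, the library with the highest sum of proximal tubule markers, with 14.1, 28.4 and 13.7 CPM in HFs and 10.5, 9.07 and 11.4 CPM in HFc. In kidney cells its log2 fold change of -0.54 (adjusted p = 0.146) was -0.96 without KFs replicate 3 (adjusted p = 0.0106).

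Gaa and Man2b1 went in opposite directions in heart and kidney cells. Man2b1 was at 47.5, 47.6 and 49.7 CPM in HFc and 69.6, 92.7 and 81.9 CPM in HFs, at 64.7, 62.9 and 61.5 CPM in KFc and 55.6, 38.9 and 37.3 CPM in KFs, and at 55.0, 54.4 and 56.5 CPM in TFc and 62.8, 76.5 and 83.8 CPM in TFs. Its transplanted libraries were all above the cultured ones in heart and tail and all below them in kidney cells (log2 fold changes 0.75, 0.43 and -0.52, adjusted p = 0.000292, 0.0239 and 0.00602). Gaa was at 100.1, 95.3 and 107 CPM in HFc and 160.0, 195 and 184 CPM in HFs, and at 161, 154 and 141 CPM in KFc and 148, 85.8 and 88.8 CPM in KFs, where replicate 1 lay within the cultured range. Its kidney log2 fold change of -0.50 ± 0.18 (adjusted p = 0.0282) was -0.42 without replicate 3 of KFs (adjusted p = 0.0676), so that its call in kidney cells, and with it the opposite directions, rested on that library.

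Of the other glycosidases, Idua, the alpha-iduronidase that acts after Ids on the same glycosaminoglycans, fell in KFs (1.78-fold lower, adjusted p = 0.000758), as did Fuca1, the alpha-fucosidase (1.72-fold lower, adjusted p = 0.000194). Gusb, the beta-glucuronidase, fell in KFs (1.28-fold, adjusted p = 0.00795) and in TFs (1.55-fold, adjusted p = 0.000162), where it went from 94.5, 99.4 and 95.9 CPM to 57.7, 67.7 and 61.3 CPM. Naglu and Glb1 were also higher in TFs, by 1.45-fold (adjusted p = 0.0106) and 1.37-fold (adjusted p = 0.0158), and Glb1 in KFs, at 0.28 on the log2 scale (adjusted p = 0.101), was at 0.36 without replicate 3 (adjusted p = 0.0332). Hexa, the alpha subunit of beta-hexosaminidase, was called in no organ, with log2 fold changes of 0.26, -0.45 and 0.03 in heart, kidney and tail cells. Exons of Idua overlap Slc26a1 and Dgkq on the opposite strand over 3.35% and 2.95% of its exon bases, and the counting used strand, while Glb1 shares 5.49% of its exon bases with Tmppe on the same strand.

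The 3 sulfatases did not move together. Arsb, arylsulfatase B, which desulfates dermatan and chondroitin sulfate, rose in heart cells, from 27.8, 29.4 and 26.8 CPM in HFc to 58.9, 65.8 and 52.0 CPM in HFs (2.10-fold, log2 fold change 1.07 ± 0.15, adjusted p = 3.05e-05). Its log2 fold changes of 0.29 in kidney and 0.22 in tail cells did not pass the test. Arsa, arylsulfatase A, the enzyme of sulfatide breakdown, fell in KFs (log2 fold change -0.50, adjusted p = 0.0424), a call that was lost without replicate 3 of KFs (-0.28, adjusted p = 0.0626), and was not called in heart or tail cells. Long noncoding or antisense gene models overlap exons of Arsb and Arsa on the opposite strand.

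Of the 6 genes of lipid handling, 3 rose and 1 fell in HFs, while in KFs 0 rose and 4 fell. Npc1 and Npc2 encode the pair of proteins that hand cholesterol out of the lysosome, NPC2 in the lumen and NPC1 in the membrane. Npc1 was at 47.6, 52.7 and 52.9 CPM in HFc and 94.7, 99.4 and 81.6 CPM in HFs, a rise of 0.85 ± 0.08 on the log2 scale (adjusted p = 6.90e-07). It was at 50.5, 50.9 and 49.0 CPM in KFc and 57.2, 56.9 and 51.6 CPM in KFs, and at 55.9, 59.2 and 60.6 CPM in TFc and 53.4, 53.4 and 60.0 CPM in TFs (adjusted p = 0.171 and 0.496). All 3 HFs libraries were thus above all 15 others. Npc2 rose from 84.3, 88.5 and 93.0 CPM in HFc to 141, 162 and 133 CPM in HFs (log2 fold change 0.71 ± 0.13, adjusted p = 0.000269) and fell from 194, 189.8 and 201 CPM in KFc to 124, 102 and 74.6 CPM in KFs (-0.96 ± 0.13, adjusted p = 2.52e-05), with no overlap in either organ. In tail cells it was at 125, 132 and 126 CPM in TFc and 139, 145 and 142 CPM in TFs, a log2 fold change of 0.16 ± 0.13 that did not pass the test (adjusted p = 0.366).

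Psap rose in heart cells (1.37-fold, adjusted p = 0.00128) and had log2 fold changes of -0.20 in kidney and 0.24 in tail cells that did not pass the test. Without KFs replicate 3 the kidney value was -0.29 (adjusted p = 0.0299). Lipa, the acid lipase that frees cholesterol from its esters, fell in KFs from 65.0, 65.7 and 63.2 CPM to 42.1, 27.5 and 28.5 CPM (log2 fold change -0.98 ± 0.13, adjusted p = 1.66e-05), and its values in heart and tail cells, 0.05 and -0.20, did not pass the test. Ppt1, the thioesterase that removes palmitate from proteins, also fell in KFs (1.54-fold lower, adjusted p = 0.000172) and was not called elsewhere, with log2 fold changes of 0.07 in heart and -0.11 in tail cells.

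Of the 8 membrane proteins, 5 were higher and 1 lower in HFs, 2 higher and 3 lower in KFs, and 2 higher and 2 lower in TFs. Among all genes tested 28.0% were higher and 28.4% lower in HFs, 26.1% and 22.7% in KFs, and 18.6% and 20.2% in TFs. Cd63, a tetraspanin of late endosomes and lysosomes, was at 209.8, 223 and 224 CPM in KFc and 348, 427 and 201 CPM in KFs. Replicate 3 of KFs was below every KFc library and the other KFs libraries above them, and the log2 fold change of 0.57 ± 0.18 (adjusted p = 0.0153) was 0.78 without replicate 3 (adjusted p = 2.44e-06) and lost its call without KFs replicate 2 or KFc replicate 1. It also rose in HFs (1.37-fold, adjusted p = 0.0423). Abcb9, the peptide transporter, fell from 6.71, 6.77 and 5.55 CPM in KFc to 3.68, 2.53 and 1.28 CPM in KFs (log2 fold change -1.34 ± 0.30, adjusted p = 0.00189) and from 7.95, 4.75 and 6.14 CPM in TFc to 2.68, 3.91 and 3.61 CPM in TFs (-0.89 ± 0.30, adjusted p = 0.03). The tail call was lost without TFc replicate 1 or 3 or TFs replicate 1 or 3.

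Laptm4b, a small transmembrane protein that binds ceramide and sits in late endosomes, rose from 14.3, 12.4 and 13.9 CPM in TFc to 18.7, 20.7 and 23.8 CPM in TFs (a log2 change of 0.64 ± 0.17, adjusted p = 0.00741) and by a like amount in heart cells (0.65 ± 0.17, adjusted p = 0.00385), but not in kidney cells (-0.13 ± 0.17, adjusted p = 0.528). Its relative Laptm4a was called higher in HFs and in no other organ (1.29-fold, adjusted p = 0.0324). Mcoln1, the calcium channel TRPML1, fell in KFs (1.42-fold lower, adjusted p = 0.00367), where replicate 3, at 18.8 CPM, was the nearest to the KFc range of 19.8 to 23.3 CPM. Scarb2, or LIMP-2, which carries beta-glucocerebrosidase to the lysosome, rose in HFs (1.76-fold, adjusted p = 0.00406). In KFs its log2 fold change of 0.40 ± 0.21 did not pass the test (adjusted p = 0.126), and it was 0.66 without replicate 3 (adjusted p = 9.50e-06).

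The difference between the responses of heart and kidney cells was tested directly as an interaction. For 20 of the 36 genes the change from culture to transplant was more positive in heart than in kidney cells, and for 0 it was more negative, beside 10.7% and 15.5% of all genes tested. The median difference was 0.71 on the log2 scale, and 33 of the 36 differences were above 0. By class the 20 were 4 of 8 proteases, 7 of 11 glycosidases, 2 of 3 sulfatases, 5 of 6 genes of lipid handling and 2 of 8 membrane proteins. Without KFs replicate 3 the count was 25, which included all 20, and at an adjusted p of 0.01 it was 13.

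Npc2 had the second largest of these differences with all libraries, 1.68 ± 0.19 (adjusted p = 3.07e-05), while without KFs replicate 3 it was at 1.56, behind Neu1 at 1.84 and Ctsd at 1.59. The libraries of Npc2 were separate in both organs, upward in heart and downward in kidney cells. Ctss had the largest, 2.71 ± 0.79 (adjusted p = 0.0198), and its call was lost without HFs replicate 3. The other differences past the threshold ran from 0.65 for Psap (adjusted p = 0.00324) to 1.40 for Neu1 (adjusted p = 0.0234). Lamp1, Ids, Ctsl, Cd63 and Asah1 had differences between -0.16 and 0.11 on the log2 scale that did not pass the test. Without KFs replicate 3 those of Ctsl and Cd63 were 0.33 (adjusted p = 0.0934) and -0.31 (adjusted p = 0.0536).

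**Figure D3:**
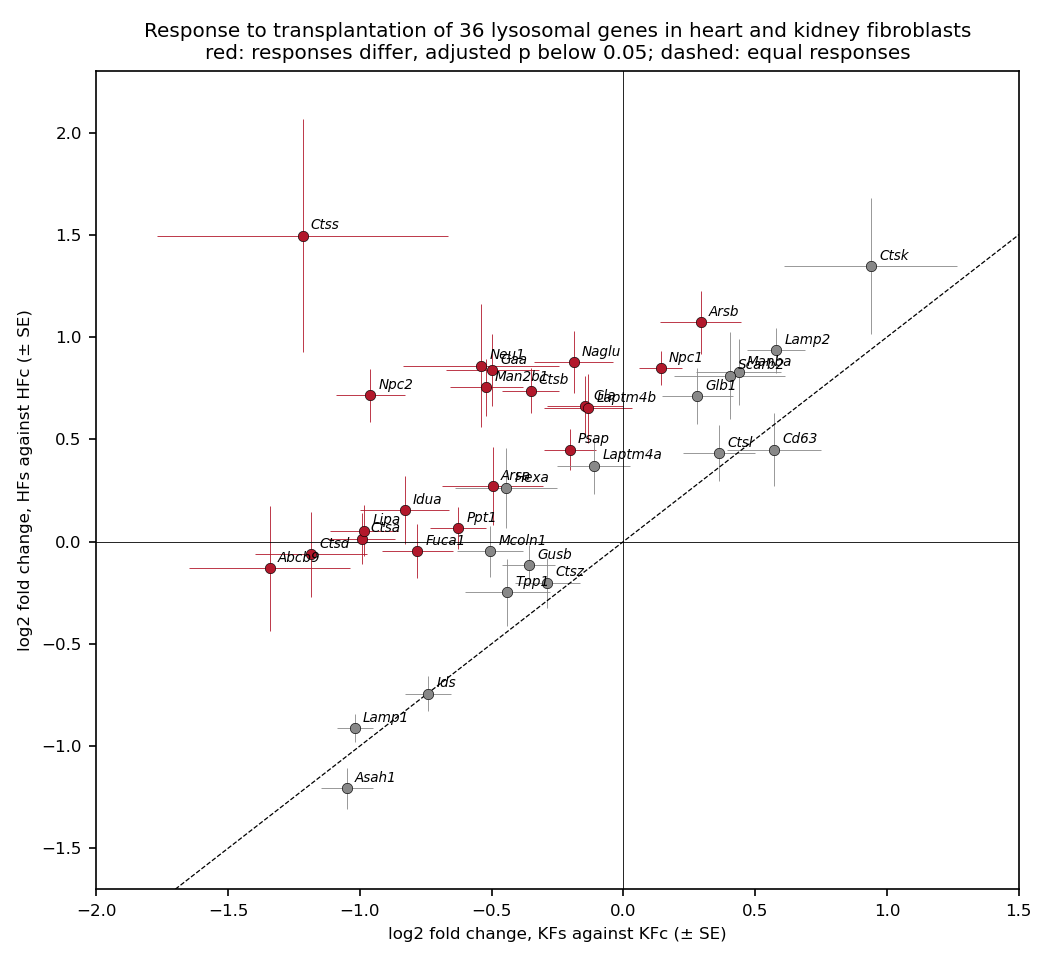
Log2 fold change after transplantation in kidney (horizontal) and heart (vertical) fibroblasts for the 36 genes, with standard errors; the dashed line marks equal responses. The 20 genes in red, whose responses differ by the interaction test, all lie above the line, and Lamp1, Asah1 and Ids lie on or near it at the lower left.

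Against tail cells, heart cells responded more positively for 8 genes and more negatively for 1, beside 10.1% and 12.7% of all genes, and the count of 9 fell to 5 when HFc replicate 1 or 2, TFc replicate 1, 2 or 3 or TFs replicate 2 was left out. After Ctss (2.50 ± 0.81, adjusted p = 0.0361, a call that leaving out any of 11 of the 12 libraries removed), Npc1 led with 0.92 ± 0.12 (adjusted p = 6.25e-05), followed by Arsb with 0.85 ± 0.22 (adjusted p = 0.0111). Asah1 was the exception with a deeper fall in heart cells. Kidney cells responded more negatively than tail cells for 8 genes and more positively for 1, Ids, beside 6.07% and 4.99% of all genes. Npc2 (-1.12 ± 0.18, adjusted p = 0.00143) and Man2b1 (-0.95 ± 0.20, adjusted p = 0.00606) led that list, which without KFs replicate 3 was led by Neu1 (-1.20, adjusted p = 0.0339) and Npc2 (-0.97), then Ctsd (-0.92) and Man2b1 after it (-0.87). The number was 22 without KFs replicate 3 and included the 9, 16 without KFs replicate 1 and 5 without TFc replicate 3, so its size rested on these libraries.

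In culture, the 36 genes were called lower in HFc and in KFc than in TFc more often than all genes tested. The other counts between cultured organs lay nearer to the shares of all genes. Between HFc and TFc, 7 genes were higher and 14 lower in HFc, beside 20.9% and 21.0% of all genes. Between KFc and TFc, 5 were higher and 10 lower in KFc, beside 17.8% and 18.5%, and between HFc and KFc, 4 were higher and 7 lower in HFc, beside 15.1% and 14.0%. With library size alone in place of TMM scaling, the median of all genes became -0.16 in HFc against TFc and -0.11 in KFc against TFc, the counts of HFc against TFc were 3 higher and 18 lower, and the median of the 36 genes between HFc and KFc turned from 0.05 to -0.04. A fit of only the 2 groups compared, in which cultured libraries no longer share the wider spread of the transplanted ones, called 13 higher and 17 lower between KFc and TFc, and 12 higher and 13 lower between HFc and KFc. The 7 in HFc over TFc fell to 4 without HFc replicate 3, TFc replicate 2 or TFc replicate 3, the 10 in KFc under TFc to 6 without KFc replicate 2 or TFc replicate 3, and the 7 in HFc under KFc to 4 without HFc replicate 2 or KFc replicate 1 or 2.

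Scarb2 differed between all pairs of organs in both states. It was at 191, 202 and 199 CPM in HFc, 104, 117 and 114 CPM in KFc and 53.2, 49.6 and 50.4 CPM in TFc. In the transplanted groups it was at 296, 369.7 and 372 CPM in HFs, 184, 181 and 79.0 CPM in KFs and 65.8, 65.8 and 64.6 CPM in TFs. No library of one organ reached the range of the next in either state. The log2 difference between heart and tail cells was 1.95 ± 0.22 in culture (adjusted p = 3.41e-06) and 2.40 ± 0.22 after transplantation (adjusted p = 1.25e-06), that between kidney and tail cells 1.13 ± 0.21 (adjusted p = 0.000738) and 1.18 ± 0.21 (adjusted p = 0.00077), and that between heart and kidney cells 0.82 ± 0.21 (adjusted p = 0.00832) and 1.23 ± 0.21 (adjusted p = 0.000492). With only the groups compared in the fit, the calls of KFs against TFs and of HFs against KFs were lost.

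Gaa ran the opposite way in culture, at 283, 282 and 279.8 CPM in TFc, above all libraries of KFc and HFc, with a log2 difference of -1.48 ± 0.18 for HFc against TFc (adjusted p = 7.29e-06). After transplantation it was -0.73 ± 0.18 for HFs (adjusted p = 0.00657) and -1.47 ± 0.18 for KFs (adjusted p = 2.48e-05) against TFs, which was at 239.6, 304 and 354 CPM. Ids was highest in TFc and lowest in KFc, -1.47 on the log2 scale for KFc against TFc (adjusted p = 8.67e-09) and 0.68 for HFc against KFc (adjusted p = 2.13e-05). Arsb was -0.95 in KFc against TFc (adjusted p = 0.000203), Abcb9 was -0.93 in HFc against TFc (adjusted p = 0.0208, lost without HFc replicate 2 or 3 or TFc replicate 1), and Asah1 was 0.81 in HFc against TFc (adjusted p = 7.78e-06). Npc2 in HFc was -1.14 against KFc (adjusted p = 9.42e-06). Ctss was higher in KFc than in TFc by 1.52 (adjusted p = 0.0444, lost without any of the 6 libraries) and lower in HFc than in KFc, with a log2 difference of -2.14 ± 0.57 (adjusted p = 0.0104). The sum over the macrophage markers ranked the 3 cultured groups in the same order, but single markers did not all follow it. Lyz2 and Csf1r were lower in every HFc than in every TFc library, while Mrc1 and Cx3cr1 were higher. Cx3cr1 was also higher in every HFc than in every KFc library.

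**Figure D4:**
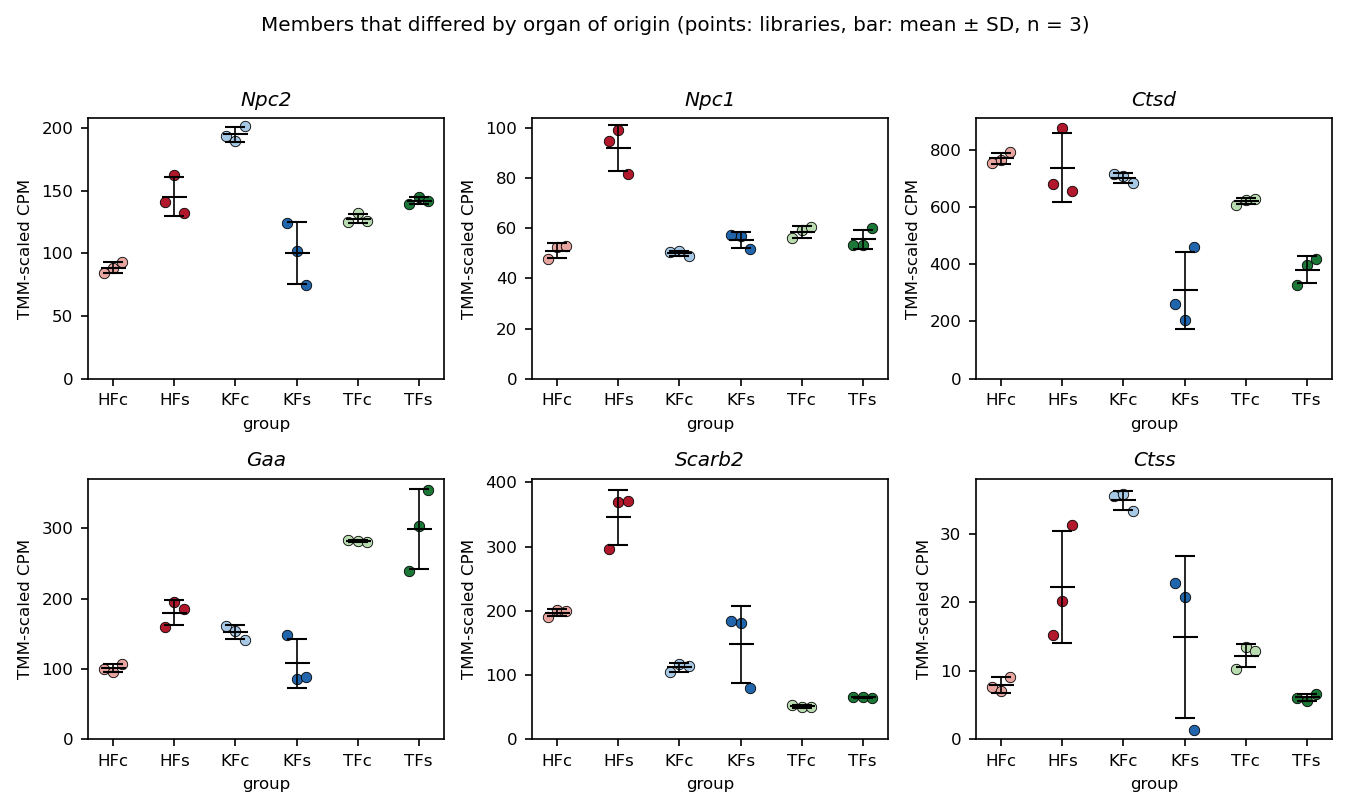
TMM-scaled CPM of Npc2, Npc1, Ctsd, Gaa, Scarb2 and Ctss in each library (points) of the 6 groups, with the mean and SD of 3 libraries. Npc2 rises in heart and falls in kidney cells, Npc1 is highest in the 3 HFs libraries, and Scarb2 decreases from heart to kidney to tail cells in both states; the lowest KFs point of Scarb2 and Ctss is replicate 3.

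Among transplanted cells most called genes were lower in the kidney group than in the others. In KFs against TFs 1 gene was higher and 20 were lower, beside 15.3% and 13.8% of all genes, and in HFs against KFs 25 were higher and 0 lower, beside 14.2% and 19.0%. With all libraries the 36 log2 differences between HFs and KFs were above 0, and without KFs replicate 3 those of Ctsk (-0.20), Cd63 (-0.06), Laptm4a (-0.03) and Abcb9 (-0.03) were below 0. The median with all libraries was 0.62, and it was 0.46 with library size alone in place of TMM, where the median of all genes was -0.25. The largest were those of Ctsd (1.26 ± 0.21, adjusted p = 0.000412) and Scarb2, which were 1.68 and 0.94 without KFs replicate 3, where Neu1 (1.13), Lipa (1.13), Idua (1.12) and Naglu (1.03) were above Scarb2. Against TFs, Gaa and Naglu were the furthest down in KFs, Naglu with 14.8, 10.5 and 12.7 CPM in KFs and 27.3, 28.0 and 31.9 CPM in TFs (-1.20 ± 0.15, adjusted p = 3.46e-05). The counts held without KFs replicate 3, with 2 higher and 22 lower against TFs and 28 higher in HFs, and were much smaller when only the 2 groups entered the fit, with 0 higher and 5 lower against TFs and 6 higher in HFs. HFs and TFs were closer, with 5 genes higher in HFs and 3 lower, beside 10.3% and 12.7%, and 5 higher and 7 lower with library size alone, which moved the median of all genes to -0.25 and that of the 36 genes from 0.07 to -0.15. Those higher in HFs included Scarb2, Ctss (1.87 ± 0.58, adjusted p = 0.0289, lost without HFs replicate 2 or 3 or any TFs library) and Lipa (1.00, adjusted p = 3.87e-05), and Ctsb was lower (-0.37, adjusted p = 0.0244, lost without any HFs library or TFs replicate 3). The 3 that were lower fell to 1 without HFs replicate 1 or 2 or TFs replicate 3.

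The promoters of the other genes were read in the same way. RefSeq's table held 34 promoters of 32 of the 36 genes; Laptm4b, Ctsb, Npc1 and Asah1 were not matched. The 6 letters CACGTG, which read the same on both strands, were found in 10 of these 34 promoters (29.4%), beside 7.15% of all 32851 promoters of this length. They were in 10 of the 32 genes (31.2%). The longer form TCACGTGA, which contains the shorter one and is also the same on both strands, was found in 4 of the 34 promoters (11.8%), beside 0.974% of all promoters. It was in 4 genes (12.5%). These 4 are shown, each as a window around 1 match or a pair of matches, with CACGTG in capitals, because they hold the full form.
Ctsa (chr2:164833751-164833810, plus strand): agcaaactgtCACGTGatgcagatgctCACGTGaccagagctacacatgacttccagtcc
Ctsd (chr7:142387893-142387952, minus strand): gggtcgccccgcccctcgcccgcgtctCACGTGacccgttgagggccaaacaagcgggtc
Mcoln1 (chr8:3500447-3500506, plus strand): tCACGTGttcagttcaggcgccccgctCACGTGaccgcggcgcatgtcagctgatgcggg
Gla (chrX:134601167-134601226, minus strand): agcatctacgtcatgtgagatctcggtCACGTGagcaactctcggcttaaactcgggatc
The CACGTG inside the full form began at positions -12 and 5 from the start base in Ctsa, -98 in Ctsd, -45 in Mcoln1 and -227 and -194 in Gla, and the windows of Ctsa and Mcoln1 also hold the match upstream of it. The other genes with CACGTG were Lamp1, Glb1, Naglu, Gaa, Ctsl and Arsa. In HFs 5 of the 10 with a match were higher and 1 lower, against 12 and 1 of the 22 without, and in KFs 1 was higher and 6 lower with a match, against 4 and 10 without. In TFs 3 were higher and 2 lower with a match, and 3 and 3 without. The shares of all genes tested were 28.0% higher and 28.4% lower in HFs, 26.1% and 22.7% in KFs, and 18.6% and 20.2% in TFs.

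Other genes of the same organelle give the surroundings. The counts of these lists, here and below, stand beside 28.0% higher and 28.4% lower of all genes in HFs. Beside KFs counts these shares were 26.1% and 22.7%, and beside TFs counts 18.6% and 20.2%. Of 28 other hydrolases and cofactors, 10 were higher and 5 lower in HFs, 4 higher and 14 lower in KFs and 5 higher and 9 lower in TFs, with medians of 0.04, -0.41 and -0.003 on the log2 scale. Acp5, the tartrate-resistant acid phosphatase, was called higher in each organ from low levels, at 0.0364, 0.406 and 0 CPM in HFc and 4.21, 2.34 and 11.1 CPM in HFs. Sgsh, the heparan N-sulfatase, fell in HFs, KFs and TFs (-1.56, -1.60 and -0.73, adjusted p = 2.77e-05, 3.60e-05 and 0.0168). Ctsc, cathepsin C, rose in HFs (2.02, adjusted p = 1.91e-06), in KFs (1.56, adjusted p = 2.27e-05) and in TFs (3.29, adjusted p = 1.04e-07). Sumf1, which activates every sulfatase, fell in HFs (-0.60, adjusted p = 9.07e-06), KFs (-1.32, adjusted p = 8.12e-09) and TFs (-1.19, adjusted p = 4.15e-08). Of 17 other membrane proteins tested, 6 were higher and 4 lower in HFs, 1 higher and 6 lower in KFs and 2 higher and 5 lower in TFs. Mcoln2, a relative of Mcoln1, was called higher in each, at 0.445, 0.432 and 0.57 CPM in TFc and 7.12, 8.31 and 5.17 CPM in TFs. Cd68, which is itself used as a macrophage marker, fell in KFs (-2.31, adjusted p = 0.000351) and TFs (-1.58, adjusted p = 0.00902) and was not called in HFs (0.37, adjusted p = 0.455), and the macrophage sums given above were lower in the same groups; their part in Cd68 was not tested.

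Most V-ATPase genes were lower after transplantation in all 3 organs. Of 22 subunit genes tested, 17 were lower and 4 higher in HFs, 15 lower and 4 higher in KFs, and 14 lower and 3 higher in TFs, with medians of -0.74, -0.78 and -0.58 on the log2 scale. Atp6v0d1, the ubiquitous d subunit, went from 68.4, 69.1 and 68.9 CPM in HFc to 33.8, 42.2 and 30.3 CPM in HFs, from 83.8, 87.0 and 81.7 CPM in KFc to 39.3, 33.6 and 29.3 CPM in KFs and from 61.1, 58.5 and 62.2 CPM in TFc to 35.4, 34.9 and 31.7 CPM in TFs. On the log2 scale it changed by -0.96 in heart (adjusted p = 4.37e-06), -1.31 in kidney (adjusted p = 3.51e-07) and -0.83 in tail cells (adjusted p = 4.23e-05), and Atp6v0a1, a subunit of the membrane sector, fell in all 3 (-0.78, -1.55 and -1.23, adjusted p = 0.00147, 4.92e-06 and 7.09e-05). Some subunits called higher were at low levels, among them Atp6v0a4, known from intercalated cells of the kidney, at 0.089, 0 and 0 CPM in TFc and 3.85, 1.32 and 2.84 CPM in TFs, and Atp6v0d2, known from osteoclasts, at 0.255, 0.203 and 0.0491 CPM in HFc and 1.44, 0.97 and 8.24 CPM in HFs. The sum over 13 markers of other tubule segments was at most 0.442 CPM in HFc and 0.386 CPM in TFc and 15.2 to 116 CPM in HFs and 24.5 to 81.3 CPM in TFs, and it was 31.1 to 37.5 CPM in KFc and 22.1 to 193 CPM in KFs. In KFc and in KFs replicate 3 most of this sum was held by Krt8, Krt18 and Cdh16. The part of tubule RNA in those subunits was not tested.

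Autophagy genes were also called lower more often than higher: 10 of 18 were lower and 2 higher in HFs, 12 lower and 1 higher in KFs, and 9 lower and 1 higher in TFs, with medians of -0.43, -0.63 and -0.31. Map1lc3a, an LC3 protein of the autophagosome membrane, was lower in each (-1.19, -1.53 and -1.25, adjusted p = 1.54e-06, 2.18e-07 and 2.71e-06), and so was Optn, an autophagy receptor (-0.68, -1.43 and -1.17, adjusted p = 0.00129, 2.59e-06 and 2.92e-05). Among 19 genes of the MiT/TFE factors and the lysosomal arm of mTORC1, 4 were higher and 7 lower in HFs, 2 higher and 8 lower in KFs and 1 higher and 6 lower in TFs. For both lists the shares of all genes were 28.0% higher and 28.4% lower in HFs, 26.1% and 22.7% in KFs, and 18.6% and 20.2% in TFs. Lamtor1, the anchor of the Ragulator complex on the lysosome, was lower in all 3 (-1.15, -1.04 and -1.03, adjusted p = 4.94e-07, 1.95e-06 and 4.34e-06). The MiT/TFE factors did not move together in heart cells. Mitf rose in HFs (1.201, adjusted p = 9.81e-05) and was not called in KFs (-0.36) or TFs (-0.23). Tfeb and Tfec were lower in HFs (-0.75 and -1.79, adjusted p = 0.0269 and 0.0414), and Tfe3 was not called there (-0.17, adjusted p = 0.126).

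Of 13 sorting genes, 3 were higher and 6 lower in HFs, 2 higher and 6 lower in KFs, and 2 higher and 5 lower in TFs. All genes tested gave 28.0% higher and 28.4% lower in HFs, 26.1% and 22.7% in KFs, and 18.6% and 20.2% in TFs. Gnptab, the transferase that starts the mannose 6-phosphate tag, rose in HFs (0.84, adjusted p = 2.18e-05) and KFs (0.84, adjusted p = 3.19e-05) and was not called in TFs (0.13, adjusted p = 0.396), while Nagpa, which uncovers the tag, fell in HFs (-0.53, adjusted p = 0.0067), KFs (-1.23, adjusted p = 8.55e-06) and TFs (-0.80, adjusted p = 0.00058). Igf2r, the large mannose 6-phosphate receptor, rose in HFs (0.71, adjusted p = 0.00791) and TFs (1.08, adjusted p = 0.000811) and was not called in KFs (0.29, adjusted p = 0.262). Of 5 inhibitors of cathepsins tested, 1 was higher and 4 lower in HFs and in KFs, and 3 were higher and 1 lower in TFs. Serpina3n, a secreted serpin, rose in each organ, from 103, 103 and 161 CPM in HFc to 766, 2113 and 5093 CPM in HFs, from 3.99, 4.50 and 3.99 CPM in KFc to 415, 134 and 51.8 CPM in KFs and from 20.7, 18.8 and 18.6 CPM in TFc to 267, 417 and 522 CPM in TFs (log2 fold changes 4.44, 5.59 and 4.38, adjusted p = 7.10e-05, 2.49e-05 and 0.000185).

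**Figure D5:**
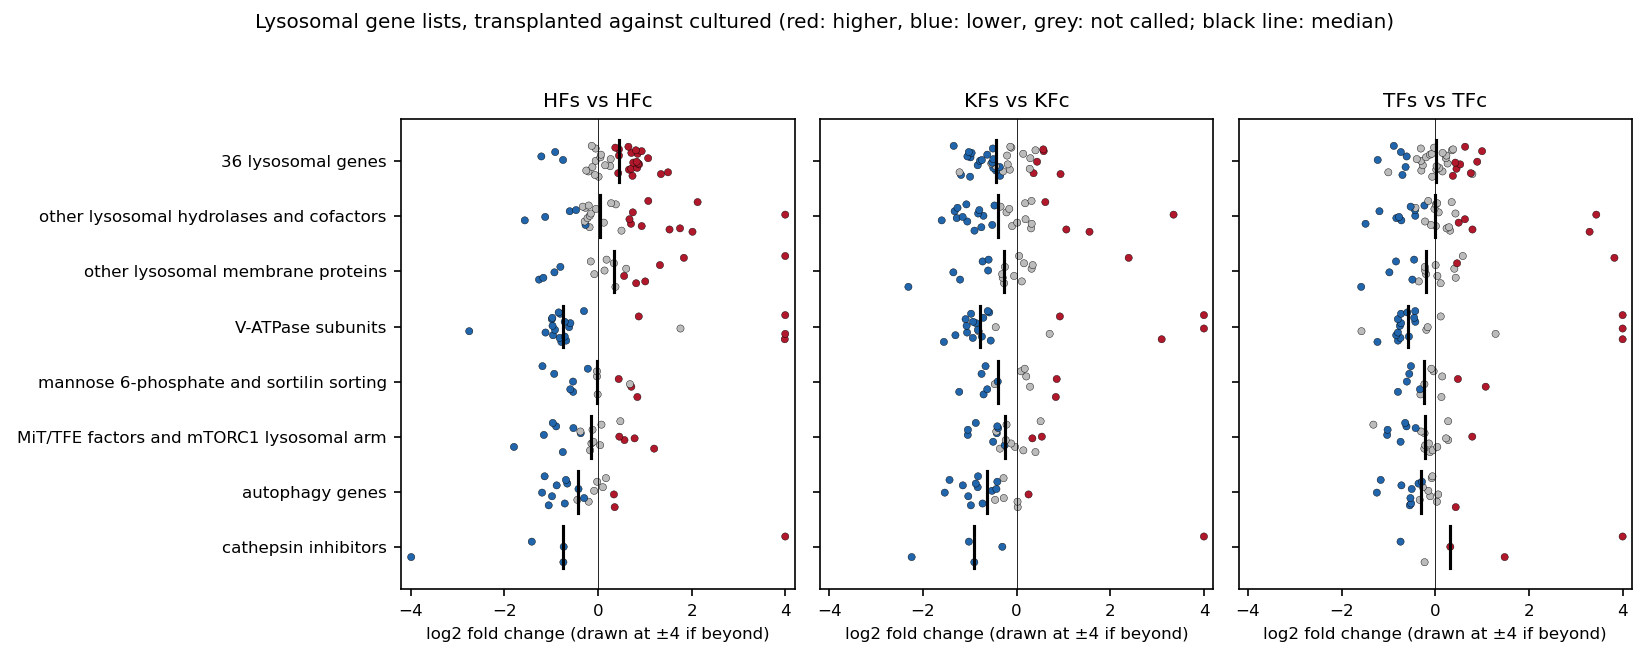
Log2 fold change, transplanted against cultured, of every tested gene of the 36 lysosomal genes and of 7 other lists (rows) in heart, kidney and tail fibroblasts (panels); red is higher and blue lower at an adjusted p below 0.05, grey is not called, and the black line is the median, with values beyond 4 or -4 drawn at that limit. The medians of the 36 genes are 0.44, -0.44 and 0.02, while those of the V-ATPase (-0.74, -0.78 and -0.58) and of autophagy genes (-0.43, -0.63 and -0.31) are below 0 in all 3 panels.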

How the data were processed

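RNA-seq libraries were made with a stranded total RNA kit and read as 75-base single ends. According to the methods the authors trimmed reads, aligned them with Bowtie2 to GRCm38 and estimated counts with RSEM using strand, while the submitters' processing notes name mm9; the deposited counts are whole-number counts per Ensembl gene, the rounding and annotation release not given in the sources used here. Gene positions and exon lengths came from GENCODE release M21 and promoters from RefSeq, both on GRCm38.

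Counts were filtered (filterByExpr), scaled by TMM and fitted in edgeR 4.0.16 (R 4.3.3) with 1 mean per group over 18 libraries. The quasi-likelihood test gave 12 comparisons, with Benjamini-Hochberg adjustment over 16577 genes and a call at an adjusted p of 0.05. Alternatives used DESeq2 1.42.0 and limma 3.58.1. The fit was tested on simulated counts with the same spread in every group. In the data the coefficient of variation between replicates, over all genes, ran from 0.0744 in HFc to 0.466 in KFs. The simulation therefore does not cover this unequal spread. The members and lists were chosen with earlier results of these data known. All members were named; values are given in full for the largest calls of each comparison.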

Additional observations from a re-analysis of the deposited data

Results flagged for a closer look

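The change from culture to transplant differed between organs, by the interaction test of edgeR's quasi-likelihood fit, for the genes below, with values on the log2 scale as difference ± SE over 3 libraries per group.

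For the response of heart cells minus that of kidney cells, 20 genes passed. These began with Ctss 2.71 ± 0.79 (adjusted p = 0.0198), Npc2 1.68 ± 0.19 (adjusted p = 3.07e-05), Neu1 1.40 ± 0.42 (adjusted p = 0.0234), Gaa 1.33 ± 0.25 (adjusted p = 0.00122) and Man2b1 1.27 ± 0.20 (adjusted p = 0.000348). They went on with Abcb9 1.21 ± 0.43 (adjusted p = 0.049), Ctsd 1.12 ± 0.30 (adjusted p = 0.0114), Ctsb 1.09 ± 0.16 (adjusted p = 0.000197), Naglu 1.07 ± 0.21 (adjusted p = 0.0019) and Lipa 1.04 ± 0.18 (adjusted p = 0.000772). They went on with Ctsa 1.01 ± 0.18 (adjusted p = 0.000862), Idua 0.99 ± 0.23 (adjusted p = 0.00611), Gla 0.81 ± 0.21 (adjusted p = 0.00916), Laptm4b 0.79 ± 0.24 (adjusted p = 0.0232) and Arsb 0.78 ± 0.22 (adjusted p = 0.0154). They went on with Arsa 0.77 ± 0.27 (adjusted p = 0.0465), Fuca1 0.73 ± 0.19 (adjusted p = 0.00945), Npc1 0.71 ± 0.12 (adjusted p = 0.000552), Ppt1 0.69 ± 0.15 (adjusted p = 0.00313) and Psap 0.65 ± 0.14 (adjusted p = 0.00324).

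For the response of heart cells minus that of tail cells, 9 genes passed. These began with Ctss 2.50 ± 0.81 (adjusted p = 0.0361), Npc1 0.92 ± 0.12 (adjusted p = 6.25e-05), Arsb 0.85 ± 0.22 (adjusted p = 0.0111), Gaa 0.75 ± 0.25 (adjusted p = 0.0393) and Gla 0.64 ± 0.21 (adjusted p = 0.0353). They went on with Npc2 0.56 ± 0.18 (adjusted p = 0.0395), Gusb 0.52 ± 0.14 (adjusted p = 0.0162), Ids 0.49 ± 0.12 (adjusted p = 0.00949) and Asah1 -0.60 ± 0.14 (adjusted p = 0.00621).

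For the response of kidney cells minus that of tail cells, 9 genes passed. These began with Ids 0.49 ± 0.12 (adjusted p = 0.0172), Ppt1 -0.51 ± 0.15 (adjusted p = 0.0368), Naglu -0.72 ± 0.21 (adjusted p = 0.0392), Ctsb -0.73 ± 0.16 (adjusted p = 0.0072) and Laptm4b -0.77 ± 0.24 (adjusted p = 0.0479). They went on with Lipa -0.79 ± 0.18 (adjusted p = 0.0114), Ctsa -0.93 ± 0.18 (adjusted p = 0.0038), Man2b1 -0.95 ± 0.20 (adjusted p = 0.00606) and Npc2 -1.12 ± 0.18 (adjusted p = 0.00143).

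The 3 differences share libraries in pairs. Without KFs replicate 3, 25 genes differed between heart and kidney cells and 22 between kidney and tail cells, and the call of Ctss between heart and kidney cells was lost without HFs replicate 3.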

How the results depend on the processing

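The 52 log2 fold changes chosen by the naming rule kept their direction under all alternatives run. The counts not given here stayed within 1.5 times. With only the groups compared in the fit, 1 gene was higher and 11 lower in KFs than KFc, 15 higher and 11 lower in TFs than TFc, 13 higher and 17 lower in KFc than TFc, 12 higher and 13 lower in HFc than KFc, 1 lower in HFs than TFs, 0 higher and 5 lower in KFs than TFs, and 6 higher in HFs than KFs; 16 responses differed between heart and tail. With limma voom and group quality weights, added after seeing the data, 5 were lower in HFs than HFc, 2 higher in KFs than KFc, 13 higher and 12 lower in TFs than TFc, 11 higher and 17 lower in KFc than TFc, 11 higher in HFc than KFc and 5 lower in HFs than TFs, and 16 responses differed between heart and tail. At an adjusted p of 0.01, 1 was higher in KFs than KFc, 4 in TFs than TFc and 4 in HFc than TFc, 6 lower in KFc than TFc, 3 in HFc than KFc and 1 in HFs than TFs, and 3, 4 and 13 responses differed between heart and tail, kidney and tail, and heart and kidney. Without a filter 3 were higher in KFs than KFc and 1 lower in HFs than TFs, with library size alone 3 were higher in HFc than TFc and 7 lower in HFs than TFs, and with DESeq2 8 were higher in KFc than TFc. The cause of these changes was not tested. Leaving out 1 library gave 1 to 5 higher in KFs than KFc, 14 to 23 lower in KFs than KFc, 5 to 9 higher in TFs than TFc, 4 to 6 lower in TFs than TFc, 4 to 6 higher in HFc than TFc, 6 to 8 lower in KFc than TFc, 4 to 6 lower in HFc than KFc, 1 to 4 lower in HFs than TFs, 1 to 2 higher in KFs than TFs, 5 to 9 responses that differed between heart and tail, 5 to 22 between kidney and tail and 17 to 25 between heart and kidney. Residuals of same-numbered libraries correlated between -0.139 and 0.0792. The cultured libraries varied too little for these values to settle whether the numbers pair groups, which the labels do not say. With the replicate block 20 were higher in HFs than HFc and 18 lower in KFs than KFc, and Manba in KFs against KFc lost its call, as did Ctss in KFc against TFc and between heart and tail. With totals scaled by TMM, the percent of counts held by the members in HFc was 0.470, the percent of counts held by the members in HFs was 0.552 and the percent of counts held by the members in TFc was 0.490.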
